A study of Homo sapiens with 9 samples.

Results

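The S100 calcium-binding proteins were followed in HepG2 cells, an established human liver cancer line, after knockdown of TRIB3, a stress-induced pseudokinase. The 9 members are the rows of the FPKM table that carry the symbols S100A4, S100A6, S100A9, S100A10, S100A11, S100A13, S100A14, S100A16 and S100P, out of 24204 gene symbols. FPKM is the number of sequenced fragments per kilobase of gene and per 1000000 counted fragments. Cells had been infected with a lentivirus carrying a control hairpin, the group shCtrl, or a hairpin that targets TRIB3, of which there were 2, the groups shTRIB3-1 and shTRIB3-2, and then selected with puromycin, with 3 libraries in each group, so every group shared the virus and the drug. The labels describe high-glucose DMEM with 10% serum. The study's RNA-seq methods name only glutamine-deprived cells, but they also cover a separate glutamine-withdrawal experiment. Its discussion reports perturbed repair genes after TRIB3 depletion without glutamine deprivation. The medium at harvest of these libraries is not stated outright and remains uncertain. The labels do not say that the 3 libraries of a group came from separate cultures, so p-values measure only the spread between these libraries.

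S100 proteins are small calcium sensors built from a pair of EF-hand motifs, the helix-loop-helix fold that holds a calcium ion. Most work as dimers that open on binding calcium and grip a target protein, often an annexin or a part of the cytoskeleton, and some are exported and signal through receptors such as the receptor for advanced glycation end products (AGER). Most of their genes lie together on the long arm of chromosome 1, and several members are known for raised levels in carcinomas, including liver cancer.

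TRIB3 itself followed the labels. It stood at 67.9, 65.8 and 66.6 FPKM in the shCtrl libraries, at 34.1, 32.7 and 34.0 with shTRIB3-1 and at 20.6, 20.7 and 20.4 with shTRIB3-2, which left 50.3% and 30.8% of the control mean. The total of each library, inferred from the steps of the FPKM values, was between 34206726 and 36311029 fragments. The 11265 genes that reached an FPKM of 1 or more in 3 or more of the 9 libraries were tested, and log2 fold changes were taken on log2(FPKM + 0.1) by limma with p-values adjusted over all genes tested. A gene counted as called where the adjusted p was under 0.05 and the log2 fold change was beyond 1 in size. Both hairpins were set against the same 3 shCtrl libraries, so their fold changes are not independent.

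Of the 9 members, 8 passed the filter on low values, each with more than 1 FPKM in all 9 libraries, and all 8 tested members rose with each hairpin. The change was a rise of more than 2-fold for most of them: 6 of the 8 were called with shTRIB3-1 and 6 with shTRIB3-2, of which S100A4, S100A6, S100A10, S100A11 and S100A16 were called with both. Among all genes tested, 5.39% were called higher with shTRIB3-1, 6.06% with shTRIB3-2 and 4.32% with both. An adjusted p under 0.05 on its own was less selective, since 32.9% of all genes passed it as higher with shTRIB3-1 and 35.4% with shTRIB3-2. The median log2 fold change of the 8 tested members was 1.26 with shTRIB3-1 and 1.25 with shTRIB3-2, beside -0.06 and -0.03 for all genes tested. In a bulk sample, a change in the number of cells that express a gene and a change in the RNA of each cell cannot be told apart.

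Most of the members sit on chromosome 1, where S100A10 and S100A11 (151982915 to 152047907) lie apart from the others (153357854 to 153631360). In the GENCODE v44 annotation of GRCh38, 8 of the 9 lie on chromosome 1 between 151982915 and 153631360, a span of 1648 kb, while S100P lies apart on chromosome 4 (6693878 to 6697170). S100A10 had the highest level, S100A4 and S100A11 had the largest rises among the members, and S100P was the member outside chromosome 1. For this reason the 250 bases before the start of these 4 members, as RefSeq places it on GRCh38.p14, are given here. They were read on the strand of the gene from chr1:151993860-151994109 (minus strand), chr1:152037005-152037254 (minus strand), chr1:153545807-153546056 (minus strand) and chr4:6693628-6693877 (plus strand), and the capitals mark the TATA box letters, the GC box letters and the stretches that match a G-quadruplex motif. The GENCODE genes of S100A11 and S100A4 reach further upstream than these RefSeq starts.
S100A10: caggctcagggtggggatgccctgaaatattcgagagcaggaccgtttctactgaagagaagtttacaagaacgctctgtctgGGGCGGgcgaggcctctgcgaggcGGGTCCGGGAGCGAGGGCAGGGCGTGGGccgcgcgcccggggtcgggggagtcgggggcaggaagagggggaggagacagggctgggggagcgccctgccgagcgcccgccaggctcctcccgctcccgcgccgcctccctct
S100A11: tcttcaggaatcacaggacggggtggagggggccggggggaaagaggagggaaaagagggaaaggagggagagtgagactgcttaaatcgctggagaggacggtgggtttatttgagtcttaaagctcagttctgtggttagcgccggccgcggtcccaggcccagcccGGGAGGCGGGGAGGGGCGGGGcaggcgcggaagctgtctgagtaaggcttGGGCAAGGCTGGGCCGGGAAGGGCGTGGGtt
S100A4: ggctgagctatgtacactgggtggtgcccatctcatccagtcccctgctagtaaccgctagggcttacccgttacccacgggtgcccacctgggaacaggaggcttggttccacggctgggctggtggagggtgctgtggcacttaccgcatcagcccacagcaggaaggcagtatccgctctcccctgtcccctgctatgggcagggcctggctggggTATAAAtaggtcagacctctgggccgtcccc
S100P: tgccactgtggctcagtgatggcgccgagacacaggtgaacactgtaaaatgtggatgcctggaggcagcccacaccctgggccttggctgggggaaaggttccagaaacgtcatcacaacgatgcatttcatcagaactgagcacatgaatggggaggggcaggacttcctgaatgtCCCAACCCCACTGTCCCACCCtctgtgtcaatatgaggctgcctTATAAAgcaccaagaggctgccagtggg

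The promoters did not share a single layout. Over the 12 RefSeq windows of the 9 members, each running from 250 bases before the start to 50 after it and searched on both strands, the TATA box (TATAAA) was found in 4 windows, those of S100A4, S100A9, S100A13 and S100P, and in 11.5% of all 35116 windows. The GC box (GGGCGG) was found in 6 of 12 windows and in 45.0% of all, and CCAAT in 2 of 12 and in 34.6% of all. A G-quadruplex motif, taken as at least 4 runs of 3 or more G with loops of 1 to 7 bases, was found in 6 of 12 windows, those of S100A6, S100A10, S100A11, S100A14, S100P and 1 of S100A16, and in 25.0% of all windows. GC boxes can lie within G-quadruplex motifs, so these counts overlap. The AP-1 letters TGANTCA and the C/EBP-ATF letters TTGCATCA were in none of the 12 windows and in 7.71% and 0.866% of all windows, which says only that these letters are not in these stretches. Over the 13035 windows of the genes tested alone, the TATA box was in 6.08%, the GC box in 66.6%, CCAAT in 35.1%, a G-quadruplex motif in 33.7%, the AP-1 letters in 5.25% and the C/EBP-ATF letters in 0.491%.

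The annexin-binding members S100A10, S100A11 and S100A6 were among the 4 most abundant in every group. S100A10, also called p11, is the light-chain partner of annexin A2 and binds it without needing calcium. It stood at 189.9, 185 and 188 FPKM in shCtrl, at 447, 469 and 445 with shTRIB3-1 and at 428, 451 and 411 with shTRIB3-2. Every knockdown library was above every control library by more than the whole spread within a group, and the log2 fold change was 1.27 (SE 0.0374, limma adjusted p = 4.25e-11) with shTRIB3-1 and 1.19 (SE 0.0374, adjusted p = 4.71e-11) with shTRIB3-2. Its promoter, printed above, holds a GC box and a G-quadruplex motif.

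S100A11, which binds annexin A1 and annexin A2 at membranes, had larger log2 fold changes. Its level was 118, 111 and 112 FPKM in shCtrl, 354, 344 and 325 with shTRIB3-1 and 338, 377 and 346 with shTRIB3-2. The knockdown libraries lay about 3 times as high as the controls, with no overlap, and the log2 fold changes were 1.58 (SE 0.0457, adjusted p = 3.64e-11) and 1.64 (SE 0.0457, adjusted p = 1.89e-11). S100A6, or calcyclin, binds annexins and the ubiquitin-pathway protein CACYBP. It went from 121, 128 and 129.7 FPKM in shCtrl to 316, 355 and 326 with shTRIB3-1 and 380.3, 426 and 356 with shTRIB3-2, again with no overlap with the controls. The log2 fold changes of S100A6 were 1.39 (SE 0.0612, adjusted p = 1.10e-09) and 1.61 (SE 0.0612, adjusted p = 2.34e-10).

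S100A4, known as metastasin and as a regulator of non-muscle myosin in cell movement, had the largest fold of the members from a low level. It was at 2.24, 2.70 and 3.08 FPKM in shCtrl (45 to 62 fragments per library), at 9.62, 11.5 and 11.3 with shTRIB3-1 and at 8.84, 10.6 and 7.35 with shTRIB3-2. The lowest knockdown library was more than 2 times as high as the highest control, and the log2 fold changes were 1.98 (SE 0.132, adjusted p = 4.44e-08) and 1.70 (SE 0.132, adjusted p = 1.56e-07). That placed S100A4 at rank 173 from the top of the 11265 genes tested with shTRIB3-1 and at rank 250 with shTRIB3-2.

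**Figure D1:**
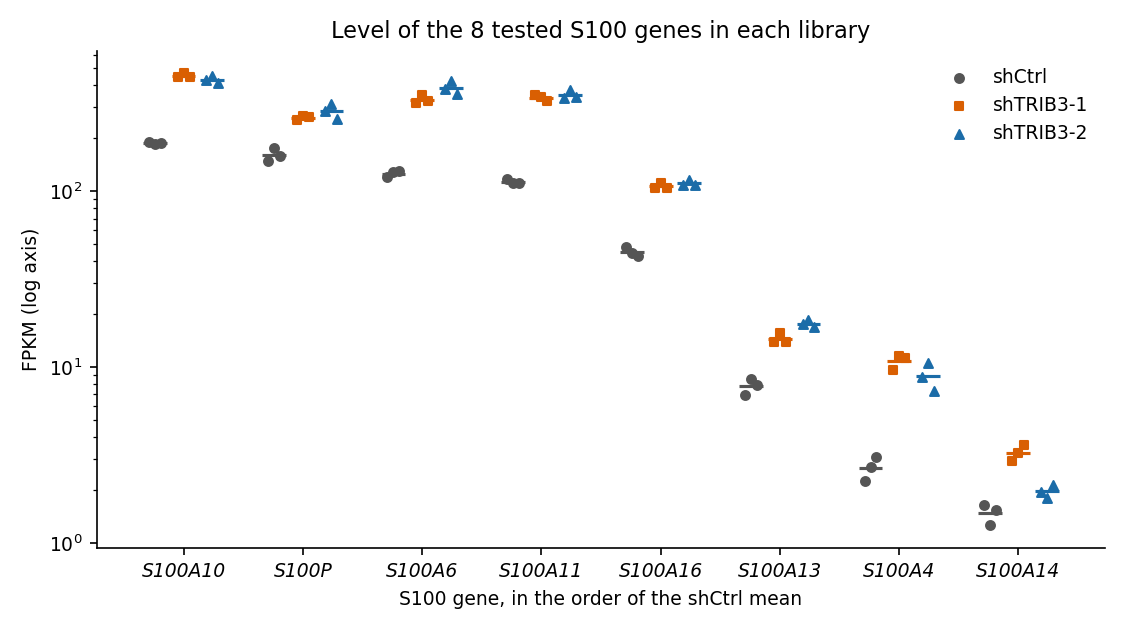
FPKM (log axis) of the 8 tested S100 members in each of the 9 libraries, with 1 point per library and a line at the mean of each group. For every gene all 3 libraries of each hairpin lie above all 3 shCtrl libraries, as for S100A16 at 42.7 to 48.1 FPKM in shCtrl and 104 to 116 with the hairpins.

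S100A16, a widely expressed member, and S100P, first found in placenta and a binder of ezrin and AGER, were also high in these cells. S100A16 went from 48.1, 44.6 and 42.7 FPKM to 104, 111 and 105 with shTRIB3-1 and 109, 116 and 109 with shTRIB3-2, a log2 fold change of 1.24 (SE 0.0451, adjusted p = 2.16e-10) and then of 1.30 (SE 0.0451, adjusted p = 1.05e-10). The S100P libraries stood at 149.6, 177 and 159 FPKM in shCtrl, at 254, 268 and 265 with shTRIB3-1 and at 285, 312 and 258 with shTRIB3-2. The S100P groups did not overlap, yet the log2 fold changes of 0.70 (SE 0.0683, adjusted p = 1.48e-06) and 0.81 (SE 0.0683, adjusted p = 3.29e-07) were under the fold needed for a call with either hairpin. S100P is the member on chromosome 4, and its promoter above carries a TATA box with its first base at position -28 and no GC box.

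S100A13, which takes part in the export of FGF1 and interleukin 1 alpha, and S100A14, an epithelial member, differed between the hairpins. S100A13 was at 6.92, 8.59 and 7.88 FPKM in shCtrl, at 13.9, 15.7 and 13.9 with shTRIB3-1 and at 17.5, 18.6 and 17.0 with shTRIB3-2. The log2 fold changes were 0.89 (SE 0.0740, adjusted p = 3.45e-07), short of a call, and 1.18 (SE 0.0740, adjusted p = 2.22e-08), a call. Another gene on the same strand overlaps 24.2% of the exon bases of S100A13 and S100A1 overlaps 10.6% on the opposite strand, so its reads cannot be assigned to it with certainty.

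S100A14 was the lowest of the tested members. Its libraries held 1.65, 1.26 and 1.53 FPKM in shCtrl, 2.91, 3.26 and 3.62 with shTRIB3-1 and 1.95, 1.80 and 2.14 with shTRIB3-2, or 54 to 70 fragments in the controls. The shTRIB3-1 libraries were about 2 times as high as the controls, whereas the shTRIB3-2 libraries lay just above the highest control. The log2 fold change was 1.09 (SE 0.115, adjusted p = 2.97e-06) with shTRIB3-1 and 0.39 (SE 0.115, adjusted p = 0.00856) with shTRIB3-2. The call with shTRIB3-1 was lost without shCtrl replicate 2 (0.99) and with a pseudocount of 1 (0.78), and the rise with shTRIB3-2 did not pass with voom on the recovered fragments (0.41, adjusted p = 0.0654).

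S100A9, the calprotectin subunit that myeloid cells make in quantity, was the member that failed the filter. It was covered by 2, 7 and 1 fragments in shCtrl, by 1, 7 and 0 with shTRIB3-1 and by 0, 1 and 3 with shTRIB3-2, means of 0.161, 0.136 and 0.0664 FPKM. The groups overlapped, and a change of S100A9 was not detectable at this depth. With no filter on low values its log2 fold change was -0.30 (95% interval -1.71 to 1.11, adjusted p = 0.751) with shTRIB3-1 and -0.59 (-2.0 to 0.81, adjusted p = 0.520) with shTRIB3-2.

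For each of the 8 tested members the lowest library of a hairpin was above the highest shCtrl library, which held for 34.2% of all genes tested with shTRIB3-1 and for 36.1% with shTRIB3-2. Within the hairpin groups the libraries were not evenly placed. The shTRIB3-2 replicate 2 library was the highest of its group for 7 of the 8 members, and the shTRIB3-1 replicate 2 library for 6 of 8. Leaving out any 1 library kept an adjusted p under 0.05 for all 8 members with both hairpins.

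**Figure D2:**
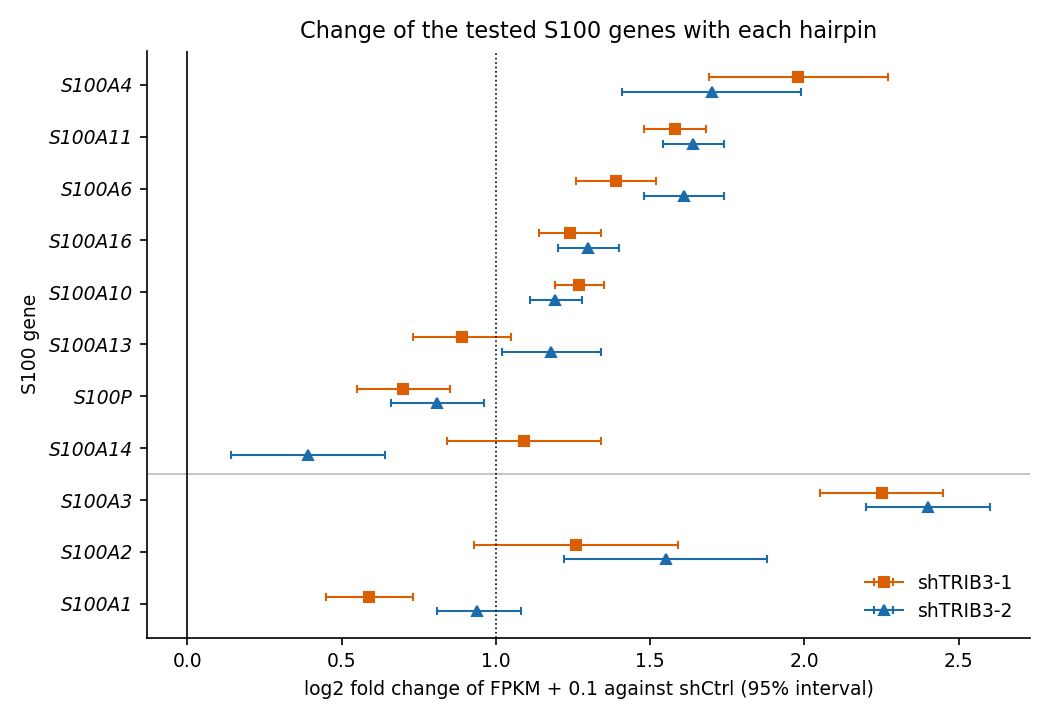
Log2 fold change of FPKM + 0.1 against shCtrl with its 95% interval for the 8 tested members (above the grey line) and the 3 other tested S100 genes (below it), with the dotted line at 1. All intervals lie above 0, the highest member is S100A4 at 1.98 and 1.70, and the hairpins part most for S100A14 at 1.09 and 0.39. S100A2 passed the filter only through the hairpin libraries.

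The hairpins were then compared with each other, since TRIB3 was lower with shTRIB3-2 than with shTRIB3-1 (log2 difference -0.71, adjusted p = 9.54e-09). Most members gave no difference that passed. S100A13 was higher with shTRIB3-2 by 0.29 (95% interval 0.13 to 0.45, adjusted p = 0.00703) and S100A6 by 0.22 (0.09 to 0.35, adjusted p = 0.0116), while S100A14 was lower by a log2 difference of -0.70 (-0.95 to -0.45, adjusted p = 4.09e-04). The S100A6 difference did not pass with each library centred on its median (0.19, adjusted p = 0.0600) or with no filter (adjusted p = 0.0548). The other 5 members did not pass, and their differences were -0.28 (-0.57 to 0.01) for S100A4, -0.08 (-0.16 to 0.00) for S100A10, 0.05 (-0.05 to 0.15) for S100A11, 0.06 (-0.04 to 0.16) for S100A16 and 0.11 (-0.04 to 0.26) for S100P. Without shTRIB3-2 replicate 2, S100A4 (-0.41, adjusted p = 0.0262) and S100A10 (-0.11, adjusted p = 0.0235) passed as lower with shTRIB3-2. Among all genes tested, 25.1% passed as higher and 20.7% as lower with shTRIB3-2, and 2.08% were called in either direction, beside 0 of the 8 members by limma, 3 of which had an unadjusted p under 0.05, and 0 by voom.

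Together the 9 members made up a larger share of the library after knockdown. Their summed level was 647 ± 11 FPKM in shCtrl (SD, n = 3), 1525 ± 46.1 with shTRIB3-1 and 1596 ± 106 with shTRIB3-2. In fragments this was 425 ± 5.10, 1006 ± 31.8 and 1048 ± 62.5 per 1000000, and the range was 15096 to 15655 fragments per control library and 33866 to 38883 per knockdown library. These sums follow from the single members and were not tested apart.

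The order of the levels changed within the family. S100A10 was the highest in every group, at the 97.9 percentile of the genes tested in shCtrl, and S100A16, S100A1 and S100A13 followed in the fifth, sixth and seventh places throughout. S100P held the second place in shCtrl (162 ± 14 FPKM) and the fourth in both hairpin groups, behind S100A6 and S100A11. The 11 S100 genes tested did not overlap between neighbours in this order in shCtrl, but S100A11 and S100A6 overlapped with shTRIB3-1, S100A10, S100A6 and S100A11 overlapped in turn with shTRIB3-2, and S100A3 and S100A4 overlapped with both hairpins. Of the summed FPKM of the 16 S100 genes in the table, S100P took 23.5% ± 1.61 in shCtrl, 16.4% ± 0.473 with shTRIB3-1 and 16.9% ± 0.555 with shTRIB3-2. S100A11 took 16.5% ± 0.809, 21.3% ± 0.943 and 21.0% ± 0.738, and S100A10 took 27.2% ± 0.843, 28.4% ± 0.0618 and 25.5% ± 0.498.

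**Figure D3:**
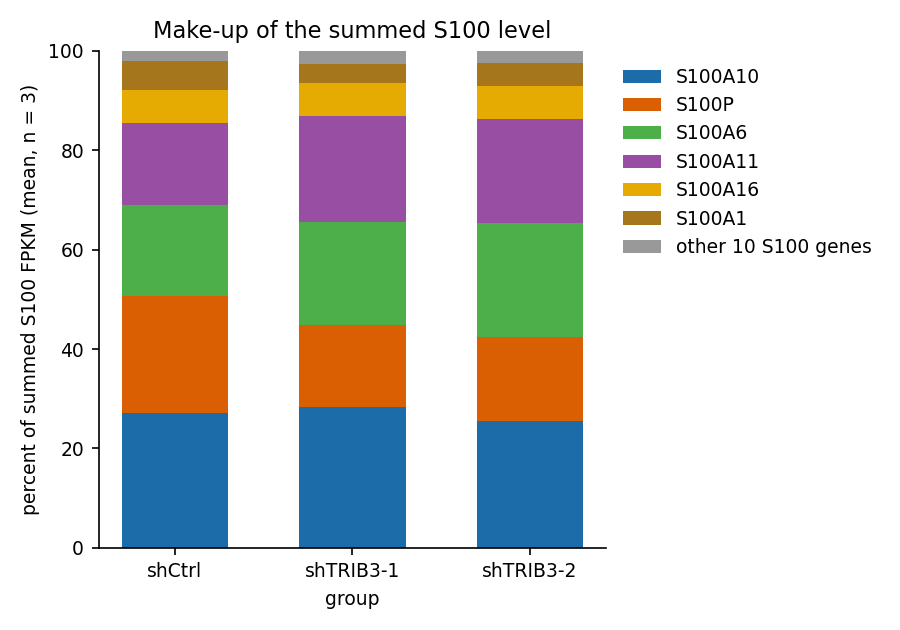
Mean share (percent, n = 3 libraries) of each S100 gene in the summed FPKM of the 16 S100 genes, stacked for each group. The S100P part narrows from 23.5% in shCtrl to 16.4% and 16.9% with the hairpins while the S100A11 part widens from 16.5% to 21.3% and 21.0%.

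The 3 other S100 genes that were tested also rose with each hairpin, of which S100A2 passed the filter only through the hairpin libraries. S100A3, known from hair follicles, stood at 2.01 ± 0.161 FPKM in shCtrl, 9.95 ± 1.08 with shTRIB3-1 and 11 ± 1.11 with shTRIB3-2 (SD, n = 3). Its log2 fold changes were 2.25 and 2.40 (adjusted p = 5.81e-10 and 2.52e-10), above those of every member. The S100A3 gene lies within the gene body of S100A4 on the same strand, with no shared exon bases in GENCODE v44. S100A1, a member best known from heart muscle, rose from 40.1 ± 1.29 FPKM to 60.5 ± 2.48 and 77.5 ± 8.07, by 0.59 and 0.94 (adjusted p = 3.35e-06 and 4.07e-08), and 18.3% of the exon sequence of S100A1 in GENCODE v44, a longer gene model than the FPKM values imply, lies antisense to other genes. S100A2, an epithelial member, rose by 1.26 and 1.55 from 31 to 40 fragments per control library, given without a p-value because of the filter. Only 1 of its control libraries reached 1 FPKM, and a pseudocount of 1 gave 0.80 and 1.02.

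The other 4 S100 genes besides S100A9 that failed the filter were near 0. S100A5 was covered by 0, 1 and 5 fragments in shCtrl, by 31, 19 and 17 with shTRIB3-1 and by 5, 15 and 9 with shTRIB3-2. Its FPKM imply a gene length of 2347 bases against 1024 exon bases in GENCODE v44. The implied length also differed for other S100 genes, at 559 against 3030 bases for S100A1, 507 against 971 for S100A6 and 562 against 946 for S100A4. S100Z was covered by 2 to 9 fragments per library, and S100A7 and S100B by at most 1. S100A7A, S100A8, S100A12, S100G and S100A7L2 had no values under these symbols, so the usual partner of S100A9 was not seen.

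Partners of the S100 proteins were taken as a list of 23 genes, of which 18 were tested. With shTRIB3-1, 11 rose, 3 fell and 4 did not pass, and with shTRIB3-2, 10 rose, 4 fell and 4 did not pass. Among all genes tested, 32.9% rose and 41.5% fell with shTRIB3-1, and 35.4% rose and 40.5% fell with shTRIB3-2, by the same rule. The median log2 fold change of the partners was 0.38 and 0.24. ANXA1 and PLG were under 1 FPKM in every control library and passed the filter only through the hairpin libraries, so they had to differ, and the counts and medians that include them are a description. With shTRIB3-2 against shTRIB3-1, 11 were lower and 7 did not pass, beside 20.7% lower and 25.1% higher of all genes tested.

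ANXA2, the partner of S100A10, rose from 34.6 ± 0.424 FPKM to 47.9 ± 1.24 and 49.0 ± 1.42 (SD, n = 3), a log2 rise of 0.47 and 0.50 (adjusted p = 6.70e-08 and 3.14e-08). That was smaller than the S100A10 log2 fold changes of 1.27 and 1.19, with 95% intervals of 0.40 to 0.54 and 0.43 to 0.57 for ANXA2 and 1.19 to 1.35 and 1.11 to 1.28 for S100A10. ANXA1, a partner of S100A11 that passed the filter only through the hairpin libraries, is described without a p-value. It went from 0.167 ± 0.0275 FPKM, 9 to 12 fragments per control library, to 62.8 ± 2.95 with shTRIB3-1 and 6.17 ± 0.0794 with shTRIB3-2. The size of that fold depended on the pseudocount, and the direction did not. AHNAK, a scaffold that binds the S100A10 and annexin A2 complex, rose by 0.78 and 0.67 (adjusted p = 3.13e-09 and 1.14e-08).

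IQGAP1, a scaffold that S100P binds, rose by 0.97 and 0.83 (adjusted p = 6.68e-10 and 2.14e-09), and ANXA5, another annexin, by 0.81 and 0.65 (adjusted p = 5.86e-10 and 3.29e-09). PLG, the plasminogen that S100A10 tethers at the cell surface, passed the filter only through the hairpin libraries and is described without a p-value. It rose by 1.95 and 2.15 from 52 to 72 fragments per control library, and by 1.02 and 1.16 with a pseudocount of 1. The receptor gene AGER stayed near the filter at 1.01 ± 0.263, 0.902 ± 0.0275 and 1.01 ± 0.210 FPKM and did not pass with either hairpin (95% intervals of -0.51 to 0.28 and -0.38 to 0.40).

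Genes of other EF-hand proteins moved in both directions. Of 36 other EF-hand genes 34 were tested, and with shTRIB3-1 16 rose, 11 fell and 7 did not pass, while with shTRIB3-2 13 rose, 15 fell and 6 did not pass. By the same rule 32.9% of all genes tested rose and 41.5% fell with shTRIB3-1, and 35.4% rose and 40.5% fell with shTRIB3-2. The median log2 fold change of the EF-hand genes was 0.06 and -0.05. LCP1, or L-plastin, which rose with shTRIB3-1, passed the filter only through the shTRIB3-1 libraries. The changes with the largest mean were in CAPN2, the large subunit of a calpain protease, which rose by 1.79 and 2.20 (adjusted p = 7.76e-11 and 1.09e-11), and in the centrin CETN3, which fell by 1.11 and 1.64 in log2 (adjusted p = 7.75e-08 and 1.77e-09). The next were TESC, or tescalcin, which fell by 1.21 and 1.32 (adjusted p = 4.29e-08 and 1.62e-08), and the myosin light chain MYL12B, which rose by 0.65 and 0.68 (adjusted p = 1.19e-08 and 6.96e-09). Among all genes tested, 6.10% were called lower with shTRIB3-1 and 6.27% with shTRIB3-2, as CETN3 and TESC were, though a pseudocount of 1 gave CETN3 -0.90 with shTRIB3-1, short of a call.

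**Figure D4:**
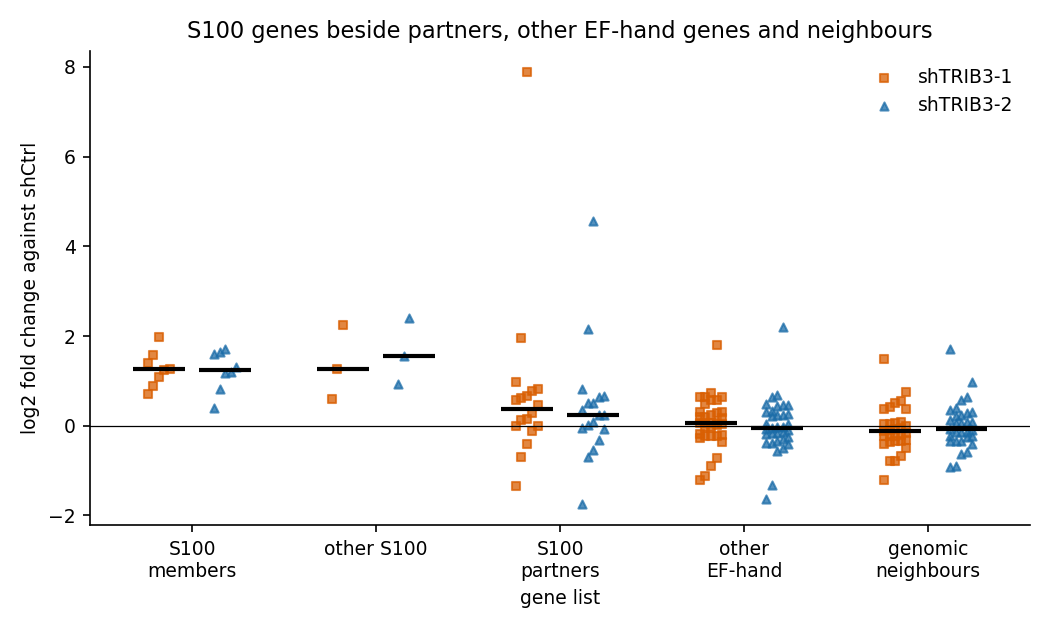
Log2 fold change against shCtrl of each tested gene in 5 lists, with 1 point per gene and hairpin and a black line at the median. The 8 tested members and 3 other S100 genes all lie above 0, with member medians of 1.26 and 1.25, while the medians of the other EF-hand genes are 0.06 and -0.05. S100A2, ANXA1 and PLG passed the filter only through the hairpin libraries, and LCP1 only through those of shTRIB3-1.

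Genes beside the S100 genes on the chromosome were also read. Of 54 genes within 500 kb of a member that are not S100 genes, 31 were tested. With shTRIB3-1, 7 rose and 16 fell (10 and 13 with each library centred on its median). With shTRIB3-2, 11 rose and 12 fell. That became 13 and 10 with quantile normalization, and 9 and 14 with each library rescaled to an equal sum of FPKM. With no filter on low values, 15 of the 54 rose and 17 fell with shTRIB3-1, and 13 rose and 13 fell with shTRIB3-2. The median log2 fold changes of the 31 tested neighbours were -0.12 with shTRIB3-1 and -0.08 with shTRIB3-2. By an adjusted p under 0.05, 32.9% of all genes tested rose and 41.5% fell with shTRIB3-1, and 35.4% and 40.5% with shTRIB3-2. On chromosome 1 alone, 6 of 21 tested neighbours rose and 11 fell with shTRIB3-1, and 9 rose and 7 fell with shTRIB3-2. Of the 10 tested neighbours of S100P on chromosome 4, 1 rose and 5 fell, then 2 rose and 5 fell.

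Among the neighbours with the largest mean changes was CGN, the tight-junction protein cingulin, which rose by 1.48 and 1.71 (adjusted p = 2.00e-09 and 4.61e-10). TUFT1, or tuftelin, rose by 0.76 and 0.98 (adjusted p = 2.53e-06 and 2.25e-07), and CREB3L4, a membrane-bound transcription factor, changed by -0.79 and -0.89 (adjusted p = 2.19e-05 and 7.20e-06). With shTRIB3-2 against shTRIB3-1, 7 neighbours were higher and 1 lower, or 4 and 2 with each library centred on its median. Over all genes tested the shares were 25.1% higher and 20.7% lower.

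**Figure D5:**
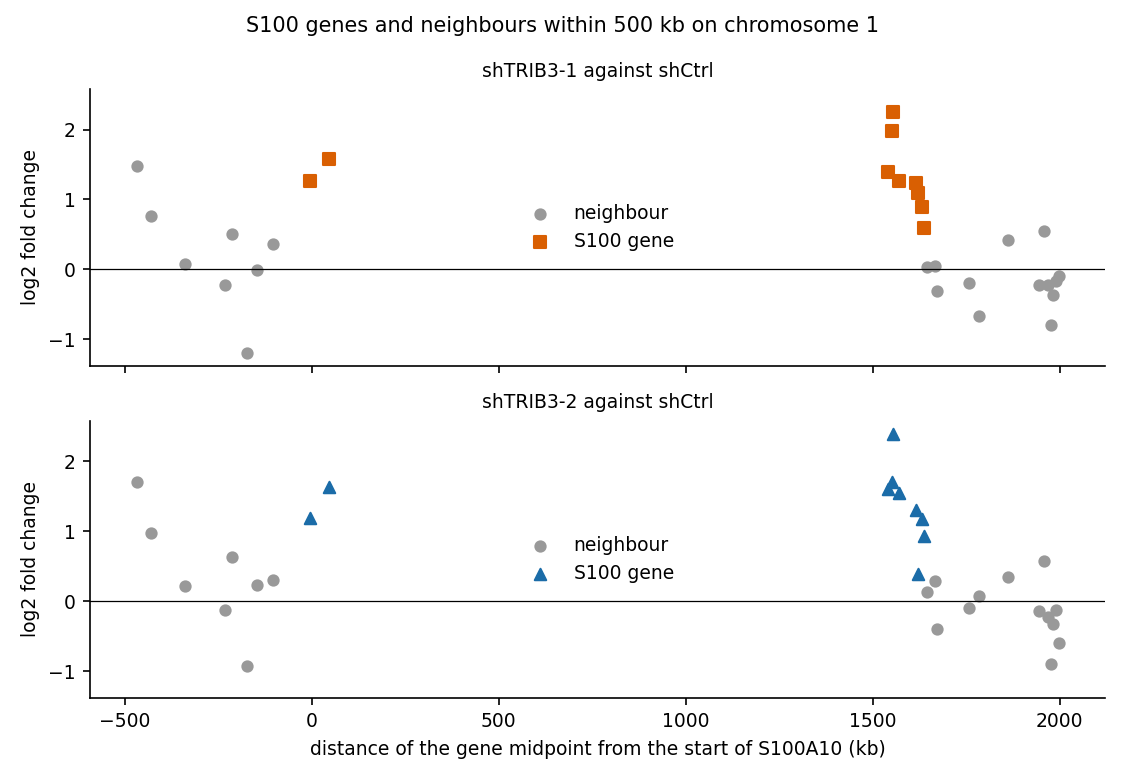
Log2 fold change against shCtrl (1 panel per hairpin) by the distance of a gene's midpoint from the start of S100A10 in kb, for the tested S100 genes of chromosome 1 (coloured) and the 21 tested neighbours (grey). The S100 genes form 2 blocks above 0, and the neighbours scatter on both sides of 0, with CGN the highest of them at 1.48 and 1.71.

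Markers of the cell types in which S100 genes are usually studied were read beside the members. All 11 hepatocyte markers were tested, with ALB (albumin) at 5213 ± 249, 5073 ± 177 and 6645 ± 66.1 FPKM in shCtrl, shTRIB3-1 and shTRIB3-2. The summed hepatocyte markers ranged from 8407 to 9058, from 8624 to 9063 and from 10840 to 11154 FPKM, most of it ALB. By the adjusted p alone, 2 of the 11 rose, 5 fell and 4 did not pass with shTRIB3-1, and 5 rose, 2 fell and 4 did not pass with shTRIB3-2. Over all genes tested that rule gave 32.9% higher and 41.5% lower with shTRIB3-1, and 35.4% and 40.5% with shTRIB3-2. The fibrinogen chain FGB fell with both hairpins, from 196 ± 11.5 FPKM to 103 ± 4.87 and 141 ± 3.39, while TTR (transthyretin) rose with both, from 27.9 ± 2.59 to 59.2 ± 0.667 and 91.5 ± 1.37. Hepatocyte genes moved in both directions, as all genes tested did, and their part in the S100 changes was not tested. Of the 8 myeloid markers, PTPRC, MPO, FCN1 and CSF1R had at most 2 fragments in any library, and the summed list, nearly all of it LYZ, fell from between 1056 and 1177 FPKM to between 532 and 559 and between 612 and 651. Only LYZ and CD68 were tested, and LYZ passed as lower with both hairpins. Below the filter, CD14 was at 1.10 ± 0.168, 0.259 ± 0.0216 and 0.321 ± 0.0883 FPKM in shCtrl, shTRIB3-1 and shTRIB3-2. ITGAM went the other way, at 0.0712 ± 0.0342, 0.153 ± 0.00208 and 0.157 ± 0.0573 FPKM. CD68 was at 31.8 ± 3.09, 37.6 ± 1.59 and 33.5 ± 1.08 FPKM in the 3 groups. It passed as higher with shTRIB3-1 and did not pass with shTRIB3-2. The 4 keratinocyte markers in the table summed to at most 0.464 FPKM in any library, although KRT14 was at 0.350 ± 0.167 FPKM with shTRIB3-1 against 0.0114 ± 0.00986 in shCtrl. The 7 mesenchymal markers in the table summed to between 93.9 and 101 FPKM in shCtrl and between 81.6 and 96.7 with the hairpins, with VIM at no more than 2 fragments in any library. Of these, 3 were tested. ZEB1, a transcription factor of mesenchymal cells, was higher with both hairpins, at 2.90 ± 0.215, 4.49 ± 0.112 and 4.83 ± 0.378 FPKM in the 3 groups, with log2 differences of 0.62 and 0.72. With shTRIB3-1 CDH2 was also higher and ACTA2 lower, and with shTRIB3-2 neither passed. The part of the mesenchymal markers in the S100 changes was not tested.

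For each called member, the tested genes outside the family with the most similar profile were taken by Pearson's r of log2(FPKM + 0.1) over the 9 libraries, which fall into 3 groups that differ in level, so r describes the group levels and carries no test here. For S100A10 these were B4GALT5 and IL32, each at r = 0.999, and IL32 changed by 1.26 and 1.20 beside 1.27 and 1.19 for S100A10. S100A11 was closest to ELOVL1 and PAM (both r = 0.999) and S100A16 to KLF6 and ANXA3 (both r = 0.999). S100A6 was closest to CTNNAL1 (r = 0.997) and ATP6V1F (r = 0.996), and S100A4 to PTTG1IP (r = 0.994) and EIF4E2 (r = 0.993). S100A13 was closest to NAB2 (r = 0.995) and MEIOB (r = 0.994). MEIOB passed the filter only through the hairpin libraries, at 0.149 FPKM in shCtrl, 0.861 with shTRIB3-1 and 1.42 with shTRIB3-2. S100A14 was closest to FBXO11 (r = 0.990) and TLNRD1 (r = 0.985), with TLNRD1 at 5.87, 9.48 and 7.01 FPKM in the 3 groups.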

How the data were processed

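RNA was sequenced from HepG2 cells with shCtrl, shTRIB3-1 or shTRIB3-2, with 3 libraries in each group, assigned by their labels. The values are FPKM computed and deposited by the authors, 1 column per library. The submitters' processing notes name GRCh38, HTSeq and R 3.2.0. The study's methods name STAR and DESeq2 and a strand-specific kit, whereas the labels name another kit, so whether counting used strand is not given in the sources used here, nor is the annotation release. FPKM does not correct for composition, so a rise of abundant genes lowers all others. Whole fragments were inferred from the FPKM steps for 100.0% of the 172769 values above 0 (tolerance 0.02 fragments). Summed over genes they came to slightly less than the inferred total in every library, as in shCtrl replicate 1 with 35766716 against 35785625. They measure depth and were used for voom as an alternative.

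Genes with FPKM of at least 1 in at least 3 of 9 libraries were fitted in limma 3.58.1 (R 4.3.3) on log2(FPKM + 0.1), with 3 group means, moderated variances with a trend, and two-sided p-values adjusted over all 11265 genes by Benjamini-Hochberg. The scripts were tested on simulated data. A pseudocount understates the change of low genes. Alternatives were another pseudocount, other filters, 3 scalings, fits of 2 groups, a replicate block, voom, and leaving out each library. Depth limits genes of few fragments, and no interval covers more than the spread between these libraries.

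The members and lists were chosen with earlier results of these data known. Named were all members, TRIB3, the other S100 genes, the 6 partners, 4 EF-hand genes and 4 neighbours with the largest mean change, ANXA2, ANXA1 and AGER, and for each called member the 2 most similar genes. Of the genes this rule names, 2 are not reported here. Positions came from GENCODE v44, where 19367 of 24204 symbols (80.0%) matched, and promoters from RefSeq (GRCh38.p14), where all 9 members matched.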

Additional observations from a re-analysis of the deposited data

Results flagged for a closer look

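Of the 8 tested members, 3 differed between the hairpins in the direct test of shTRIB3-2 against shTRIB3-1 (limma, adjusted over all genes tested). By the same test 25.1% of all genes were higher and 20.7% lower with shTRIB3-2, so such differences were common. S100A6 was higher with shTRIB3-2 by a log2 difference of 0.22 (adjusted p = 0.0116) and S100A13 by 0.29 (adjusted p = 0.00703). The S100A6 difference did not pass with each library centred on its median (adjusted p = 0.0600) or with no filter on low values. S100A14 had a log2 difference of -0.70 (adjusted p = 4.09e-04), against a TRIB3 level that was also lower with shTRIB3-2. All 3 shTRIB3-2 libraries lay above all 3 shTRIB3-1 libraries for S100A6 and S100A13 and below them for S100A14.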

How the results depend on the processing

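Each member was refitted under 18 alternatives. Against shCtrl, 285 of 286 log2 fold changes kept their direction and their side of an adjusted p of 0.05, the exception being S100A14 with shTRIB3-2 by voom. The call, which also needs a log2 fold change beyond 1, was lost for S100A14 with shTRIB3-1 at a pseudocount of 1 (0.78) and without shCtrl replicate 2 (0.99). Between the hairpins 135 of 143 log2 differences kept their direction and their side of an adjusted p of 0.05. There, with quantile normalization 6 members passed in place of 3, S100A10 turned to 0.18, and S100A11 (0.31) and S100P (0.24) passed as higher with shTRIB3-2, and the cause was not tested. Leaving out 1 library at a time gave between 3 and 5 members, with 5 without shTRIB3-2 replicate 2 and 4 without shTRIB3-2 replicate 3, where S100P passed (0.18). S100A14 was not tested at FPKM of at least 5. Over all genes tested, same-numbered libraries showed little shared deviation (correlations of -0.0742 to 0.0933 over 9 pairs). These correlations do not describe the members alone, for most of which replicate 2 was the highest library in both hairpin groups. The replicate block left 6, 6 and 0 members called and changed no call of a member. Depth limits S100A9, S100A5 and, less so, S100A14 and S100A4.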
